A study of Mus with 8 samples.

Results

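Transcripts of the nuclear genes for respiratory complexes II, III, IV and V were followed in B16F10, a pigmented line derived from a mouse melanoma. The Butyroside D group held 4 samples of cells given 2 µM of that compound for 48 h, and the control group 4 samples of the same line kept in medium alone for 48 h. The treatment note of the controls gives 0.2 µM next to the word for untreated, although the other labels of these samples name only medium. Each sample was read on 1 Mouse Clariom S array, which gives a log2 signal for each transcript cluster, in most cases a gene. The members were all transcript clusters with a single symbol that begins with Uqcr, Cox followed by a digit from 4 to 8, or Atp5, or that is Cyc1, Sdha, Sdhb, Sdhc or Sdhd. They came to 49 of 22206 transcript clusters, with 4 in complex II, 9 in complex III, 18 in complex IV and 18 in complex V. Of the 49, 39 stand for subunits that most tissues use, 7 for cytochrome c oxidase isoforms that other tissues favour, 2 for proteins outside the ATP synthase proper (Atp5s and Atp5sl), and 1 is a noncoding cluster that also carries the symbol Atp5d.

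The respiratory chain passes electrons from food to oxygen in the inner mitochondrial membrane. Complex II takes them from succinate and is also an enzyme of the citric acid cycle, complex III hands them from ubiquinol to cytochrome c, and complex IV hands them from cytochrome c to oxygen. Complexes III and IV pump protons, and complex V, the ATP synthase, lets protons back through a turning ring of c subunits to make ATP. Complex II is wholly coded in the nucleus, while the other complexes also hold subunits coded in mitochondrial DNA, so their nuclear subunits must be made in step with a second genome. Melanoma cells can use both glycolysis and respiration, and in this lineage the melanocyte factor MITF is known to raise the coactivator PGC-1α, coded by Ppargc1a, which drives respiratory genes.

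The arrays were not evenly spread within groups. Arrays 1 and 2 of each group resembled each other closely, as did arrays 3 and 4. The correlation across transcript clusters was 0.997 to 0.998 within these 4 close pairs and 0.986 to 0.993 between them. Butyroside D arrays 3 and 4 correlated at 0.993 with each control array, but at 0.986 with arrays 1 and 2 of their own group. Butyroside D arrays 1 and 2 correlated at 0.986 to 0.988 with the controls, and the 2 control pairs at 0.992 with each other. Nothing in the labels says that the arrays stand for separate cultures. The p-values therefore rest on the spread among arrays alone, and that spread may be technical. Among the 49 members the median SD was 0.09 within close pairs, 0.35 between the 2 Butyroside D pairs and 0.21 between the 2 control pairs (log2). Values are therefore given for each pair as well as for the groups, and n = 4 stands for 2 close pairs. All 7 melanocyte markers (Tyr, Tyrp1, Dct, Pmel, Mlana, Sox10 and Mitf) had group means of 13.33 to 19.03 in Butyroside D arrays and 13.15 to 19.02 in control arrays. Of 20 markers of fibroblasts, keratinocytes, leukocytes and endothelium, 2 in Butyroside D arrays and 3 in control arrays had means at or above 5.17, the highest median of the antigenomic background probes on any array. In such bulk RNA, fewer cells and less RNA per cell cannot be told apart.

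Most members had somewhat higher signals in Butyroside D arrays, but none passed the test. The highest differences were those of Atp5d (0.89 ± 0.25, log2 ± SE), Atp5e (0.87 ± 0.22), Cox6a1 (0.79 ± 0.15), Uqcrh (0.74 ± 0.18) and Uqcrb (0.73 ± 0.29), small subunits of complexes III, IV and V. No member passed the threshold of an adjusted p under 0.05 between Butyroside D and control arrays (limma, Benjamini-Hochberg over 22206 transcript clusters). The count was 0 of 49 higher and 0 of 49 lower, where 0.0766% of all transcript clusters were called higher and 0.0405% lower. At an unadjusted p under 0.05, 12 members were higher and 0 lower, or 24.5% and 0%, beside 9.84% and 8.07% of all transcript clusters. The smallest adjusted p of a member was 0.0712, for Cox6a1. The log2 difference was positive for 40 of the 49 members, against 51.5% of all transcript clusters, and its median was 0.22 for the members and 0.01 for all. With the close pair as a random block (correlation within pairs 0.808), limma called 0 members and 0 transcript clusters. In that fit 7 members had an unadjusted p under 0.05, all higher and 0 lower, beside 2.41% higher and 1.59% lower of all transcript clusters. The SEs and intervals printed for single genes come from the fit without this block. With the block they were wider, as for Cox6a1, whose SE was 0.24 with it and 0.15 without.

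**Figure D1:**
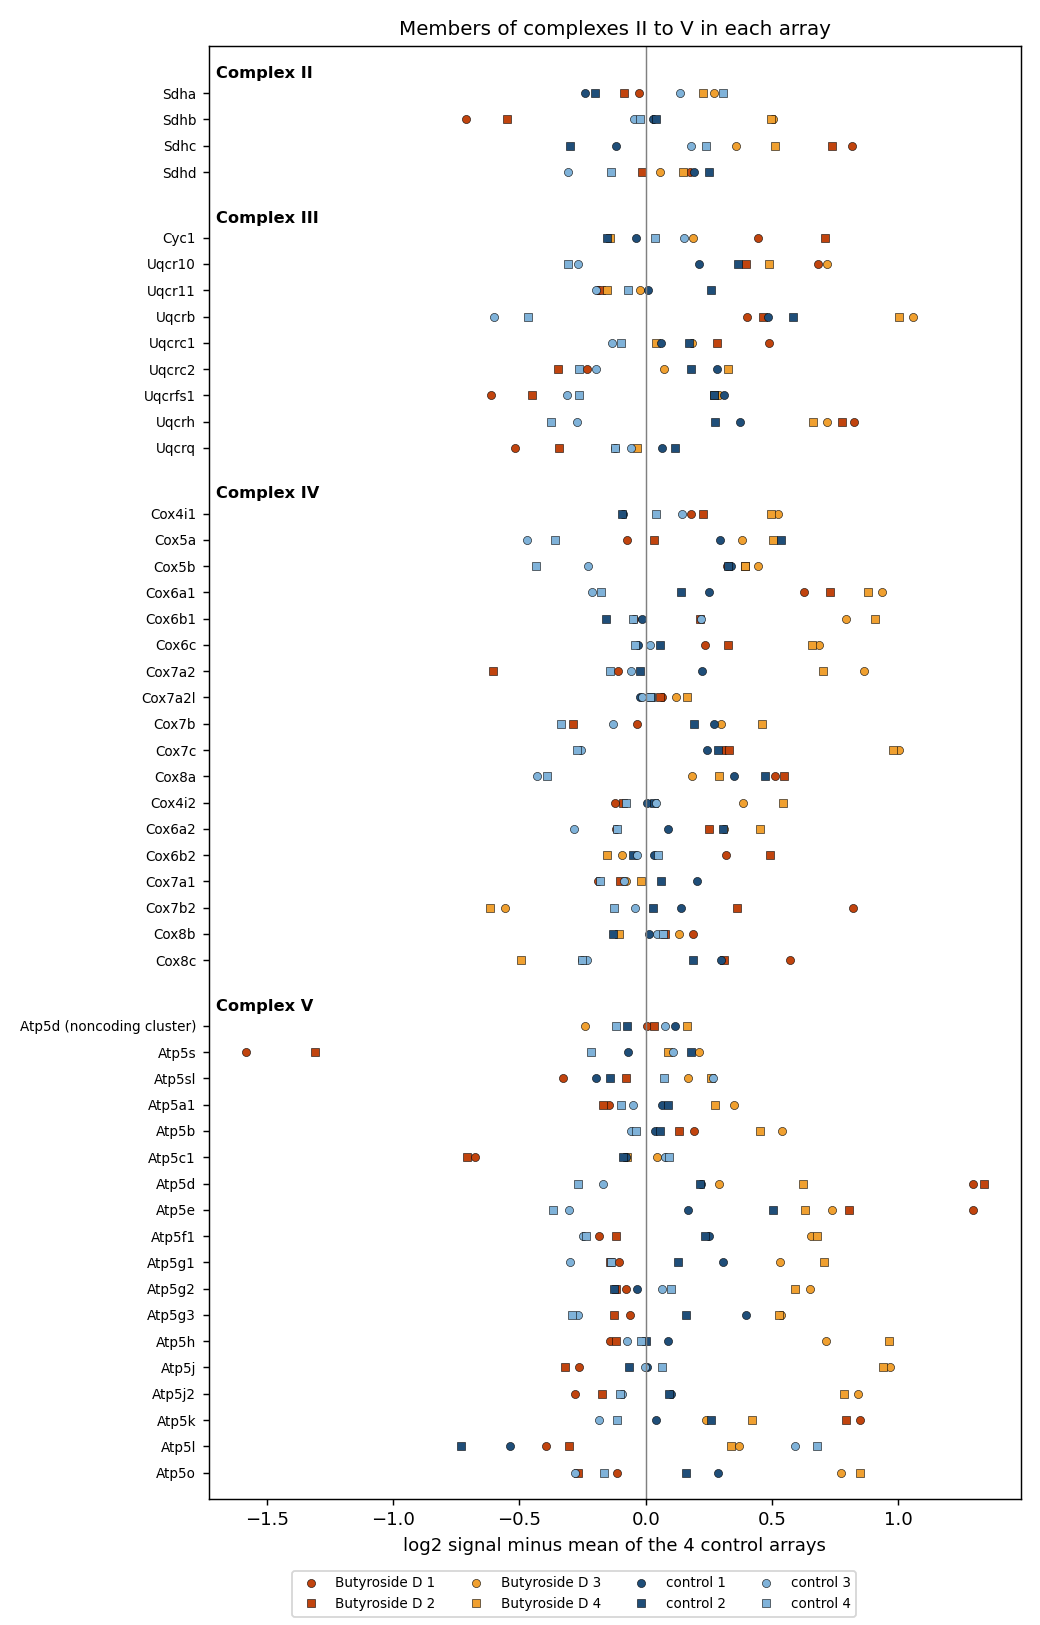
Each row is a member, grouped by complex, and each point an array, placed by its log2 signal minus the mean of the 4 control arrays for that member. Arrays 3 and 4 of the Butyroside D group lie right of all control arrays for 28 of 49 members, and arrays 1 and 2 of that group lie on either side, from Atp5s at far left to Atp5d at far right.

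Within each group, many members differed between the close pairs. In Butyroside D arrays 3 and 4, 28 of the 49 members were above all 4 control arrays and 2 below them, beside 18.9% and 19.3% of all transcript clusters. The 2 below were Cox6b2 and Cox7b2, both testis-type isoforms with dim signals. In Butyroside D arrays 1 and 2, 19 members were above all controls and 10 below, beside 27.4% and 23%. The median difference from all controls was 0.42 in arrays 3 and 4 and 0.02 in arrays 1 and 2. Arrays 3 and 4 of the Butyroside D group were above its arrays 1 and 2 for 33 members and below them for 11, beside 33.4% and 41.3% of all transcript clusters. For 22 members they were above all other 6 arrays, beside 12.2%, and arrays 1 and 2 were above all other 6 for 11 members, beside 22.5%. A split also ran within the controls, where arrays 1 and 2 were above arrays 3 and 4 for 32 members and below them for 9, beside 34.3% and 36.6% of all transcript clusters. The median antigenomic background also differed by pair. It was 5.17, 5.07, 4.70 and 4.69 in Butyroside D arrays 1 to 4, against 4.86, 4.83, 4.90 and 4.95 in control arrays 1 to 4, and its part in these differences was not tested. The mean over the 8 arrays was below 5.17 for 47.9% of all transcript clusters, against 12.2% of the members. The shares of all transcript clusters are therefore not matched to the members for signal. Butyroside D arrays 3 and 4 were above all controls for 85.7% of the melanocyte markers and 77.8% of the electron and substrate carriers read below. The share was 45.5% for the regulators and 33.3% to 50% for the assembly genes of each complex.

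All 4 Butyroside D arrays were above all 4 control arrays for 11 members and below them for 0, beside 6.98% and 5.93% of all transcript clusters. The 11 were Sdhc of complex II, Uqcr10 and Uqcrh of complex III, Cox4i1, Cox6a1, Cox6c, Cox7a2l and Cox7c of complex IV, and Atp5b, Atp5d and Atp5e of complex V. All 11 are counted here among the 39 ubiquitous subunits, although Cox7a2l is also known as a supercomplex factor of complexes III and IV. None passed the threshold, so these are separations of array values and not called changes.

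**Figure D2:**
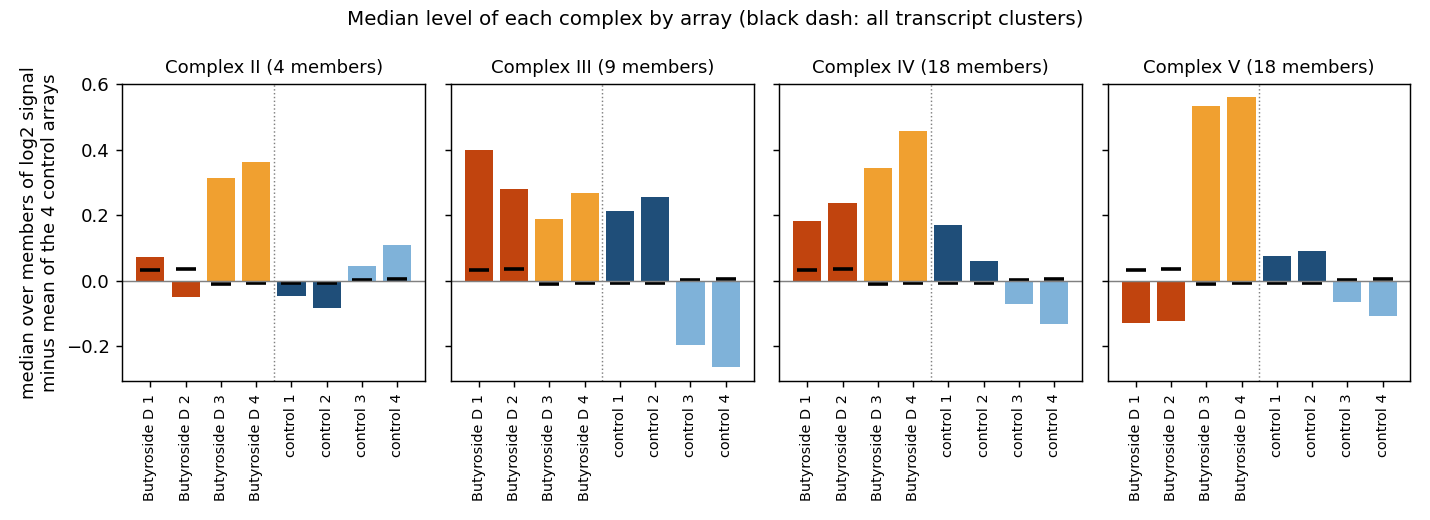
Bars give, for each array and complex, the median over members of the log2 signal minus the mean of the 4 control arrays, and black dashes the same median over all transcript clusters. Complex V stood at 0.53 and 0.56 in Butyroside D arrays 3 and 4 and at -0.13 and -0.12 in arrays 1 and 2, while complex III was positive in all 4 Butyroside D arrays and also in control arrays 1 and 2.

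Complex II has 4 subunits, all measured, and they did not move as a unit. Their median log2 difference was 0.09, and by array the complex median was 0.07, -0.05, 0.31 and 0.36 in Butyroside D arrays 1 to 4, against -0.05, -0.08, 0.05 and 0.11 in control arrays 1 to 4. Sdhc, which codes for a membrane anchor that helps hold the heme, had log2 signals of 10.20, 10.12, 9.74 and 9.90 in Butyroside D arrays 1 to 4, against 9.27, 9.09, 9.57 and 9.62 in control arrays 1 to 4. The groups did not overlap, and the difference was 0.61 ± 0.17 (log2 ± SE, n = 4 arrays per group, adjusted p = 0.125 with limma). Sdhb, the iron-sulfur subunit, had 12.55, 12.71, 13.76 and 13.76 in Butyroside D arrays 1 to 4, against 13.29, 13.30, 13.22 and 13.24 in control arrays 1 to 4. All controls lay within a narrow band, with Butyroside D arrays 1 and 2 below it and arrays 3 and 4 above it, so the group difference was only -0.07 ± 0.28 with a 95% interval of -0.68 to 0.55. Sdha, the flavoprotein that oxidises succinate, had 9.80, 9.74, 10.10 and 10.05 in Butyroside D arrays 1 to 4, against 9.59, 9.62, 9.96 and 10.13 in control arrays 1 to 4. Its control range held all 4 Butyroside D values. Sdhd, the second membrane anchor, had 9.88, 9.69, 9.77 and 9.86 in Butyroside D arrays 1 to 4, against 9.90, 9.96, 9.40 and 9.57 in control arrays 1 to 4, and all Butyroside D values fell inside the control range. The differences of Sdha and Sdhd were 0.10 ± 0.16 and 0.09 ± 0.15.

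In complex III, 5 of 9 members had a positive difference and the median was 0.25, with the smallest p values among small accessory subunits. By array the complex median was 0.40, 0.28, 0.19 and 0.27 in Butyroside D arrays 1 to 4, against 0.21, 0.26, -0.20 and -0.26 in control arrays 1 to 4. Control arrays 1 and 2 thus stood near the level of the Butyroside D arrays, and control arrays 3 and 4 well below. Uqcrh, the acidic hinge protein that helps cytochrome c dock, had 10.01, 9.97, 9.91 and 9.85 in Butyroside D arrays 1 to 4, against 9.56, 9.46, 8.92 and 8.82 in control arrays 1 to 4. Its difference was 0.74 ± 0.18, with a 95% interval of 0.34 to 1.15 and an adjusted p of 0.0986 (limma). The Butyroside D arrays varied less among themselves than the controls did, at 9.93 ± 0.07 in Butyroside D arrays and 9.19 ± 0.38 in control arrays (SD, n = 4 each). Uqcr10, a small subunit near cytochrome c1, had 7.85, 7.56, 7.88 and 7.65 in Butyroside D arrays 1 to 4, against 7.38, 7.53, 6.89 and 6.85 in control arrays 1 to 4. The lowest Butyroside D array was just above the highest control array, and the difference was 0.57 ± 0.18 (adjusted p = 0.157, limma).

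Uqcrb, a subunit needed for a stable complex and close to the ubiquinone site, had 14.62, 14.68, 15.28 and 15.22 in Butyroside D arrays 1 to 4, against 14.71, 14.81, 13.62 and 13.76 in control arrays 1 to 4. Control arrays 1 and 2 were slightly above Butyroside D arrays 1 and 2, so the difference of 0.73 ± 0.29 (adjusted p = 0.241, limma) rested on Butyroside D arrays 3 and 4 at the top and control arrays 3 and 4 at the bottom. Cyc1, which codes for the heme protein cytochrome c1, had 6.85, 7.12, 6.59 and 6.26 in Butyroside D arrays 1 to 4, against 6.37, 6.25, 6.56 and 6.44 in control arrays 1 to 4. Arrays 1 and 2 of the Butyroside D group were the highest of the 8, while its array 3 was level with the highest control and its array 4 with the lowest (difference 0.30 ± 0.18, adjusted p = 0.414). Uqcrfs1, the Rieske iron-sulfur protein, went the other way, at -0.53 in Butyroside D arrays 1 and 2 and 0.28 in arrays 3 and 4 relative to all controls. The core proteins Uqcrc1 and Uqcrc2, which face the matrix, differed by 0.25 ± 0.14 and -0.04 ± 0.19. Uqcrq, a small subunit that lies beside cytochrome b, had 11.54, 11.71, 11.94 and 12.03 in Butyroside D arrays 1 to 4, against 12.12, 12.18, 12.00 and 11.94 in control arrays 1 to 4. It had the lowest difference of the complex, -0.25 ± 0.14, with arrays 1 and 2 of the Butyroside D group below all others. Uqcrfs1 and Uqcrc2 were also slightly negative, and Uqcrfs1 differed by -0.13 ± 0.25. Uqcr11 (-0.14 ± 0.13) was dim, with 4.76, 4.77, 4.93 and 4.80 in Butyroside D arrays 1 to 4, against 4.96, 5.21, 4.75 and 4.88 in control arrays 1 to 4, and its values cannot be told from background.

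In complex IV, all 11 ubiquitous members had a positive difference, with a median of 0.38 and a range of 0.10 to 0.79, and none passed the threshold. By array the median of these 11 was 0.18, 0.23, 0.52 and 0.51 in Butyroside D arrays 1 to 4, against 0.24, 0.14, -0.13 and -0.18 in control arrays 1 to 4. Cox6a1, the ubiquitous form of a regulatory subunit, had the smallest p of the 49 members, with 11.35, 11.45, 11.66 and 11.60 in Butyroside D arrays 1 to 4, against 10.97, 10.86, 10.51 and 10.54 in control arrays 1 to 4. The lowest Butyroside D array lay above the highest control array, and both close pairs were above the controls, by 0.68 in arrays 1 and 2 and 0.91 in arrays 3 and 4. The difference was 0.79 ± 0.15 with a 95% interval of 0.46 to 1.12, at 11.51 ± 0.14 in Butyroside D arrays and 10.72 ± 0.23 in control arrays (SD, n = 4 each). Cox7c, a single-span membrane subunit, had 14.66, 14.68, 15.35 and 15.33 in Butyroside D arrays 1 to 4, against 14.59, 14.64, 14.09 and 14.08 in control arrays 1 to 4. The groups did not overlap, but Butyroside D arrays 1 and 2 were within 0.1 of control arrays 1 and 2 (difference 0.65 ± 0.22, adjusted p = 0.177, limma). Cox6c, another small membrane subunit, had 12.29, 12.38, 12.74 and 12.71 in Butyroside D arrays 1 to 4, against 12.02, 12.11, 12.07 and 12.01 in control arrays 1 to 4. Its controls were tight, and it differed by 0.48 ± 0.14 (adjusted p = 0.139, limma).

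Cox4i1, the ubiquitous form of the largest nuclear subunit and a site of ATP regulation, had 11.75, 11.80, 12.10 and 12.07 in Butyroside D arrays 1 to 4, against 11.49, 11.48, 11.72 and 11.62 in control arrays 1 to 4. Both Butyroside D pairs were above the controls, by 0.20 and 0.51, and the difference was 0.36 ± 0.13 (adjusted p = 0.216, limma). Cox7a2l showed the smallest spread of the complex, with 10.14, 10.13, 10.20 and 10.24 in Butyroside D arrays 1 to 4, against 10.05, 10.10, 10.06 and 10.10 in control arrays 1 to 4. The groups did not overlap, yet the difference was only 0.10 ± 0.11 with a 95% interval of -0.14 to 0.34. Cox6b1, which bridges the intermembrane faces of the dimer, had 9.89, 10.15, 10.73 and 10.85 in Butyroside D arrays 1 to 4, against 9.92, 9.78, 10.16 and 9.89 in control arrays 1 to 4, so that only arrays 3 and 4 of the Butyroside D group stood clear of the controls. Cox7a2 had 9.39, 8.89, 10.36 and 10.20 in Butyroside D arrays 1 to 4, against 9.72, 9.48, 9.44 and 9.36 in control arrays 1 to 4, and Butyroside D array 2 was the lowest of all 8 while arrays 3 and 4 were the highest. Cox7b had 12.94, 12.69, 13.27 and 13.43 in Butyroside D arrays 1 to 4, against 13.24, 13.16, 12.84 and 12.64 in control arrays 1 to 4, with the same order of the 2 Butyroside D pairs. Cox8a, by contrast, was higher in Butyroside D arrays 1 and 2 than in the other 6, with 12.64, 12.68, 12.32 and 12.42 in Butyroside D arrays 1 to 4, against 12.48, 12.61, 11.70 and 11.74 in control arrays 1 to 4. The differences of Cox6b1, Cox7a2, Cox7b and Cox8a were 0.47 ± 0.22, 0.21 ± 0.29, 0.11 ± 0.20 and 0.38 ± 0.22, with adjusted p of 0.288 to 0.804 (limma). The remaining members, Cox5a and the zinc-binding subunit Cox5b, differed by 0.21 ± 0.24 and 0.39 ± 0.19, and for both the controls were split, with arrays 1 and 2 above arrays 3 and 4 by 0.83 and 0.66.

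Several subunits of complex IV come in isoforms that particular tissues favour, and these were dim or close to background here. Of the 7 such members, 4 had a mean over the 8 arrays below 5.17, namely Cox4i2, Cox6b2, Cox7b2 and Cox8b, so their differences are not read. Cox4i2, a lung and low-oxygen form, had 3.47, 3.51, 3.98 and 4.14 in Butyroside D arrays 1 to 4, against 3.60, 3.63, 3.64 and 3.52 in control arrays 1 to 4. Cox6b2, Cox7b2 and Cox8c are testis forms. Cox6b2 had 4.32, 4.49, 3.90 and 3.85 in Butyroside D arrays 1 to 4, against 4.03, 3.95, 3.97 and 4.05 in control arrays 1 to 4. Cox7b2 had 4.78, 4.32, 3.40 and 3.34 in Butyroside D arrays 1 to 4, against 4.10, 3.98, 3.91 and 3.83 in control arrays 1 to 4. Cox8c, the only one of them above the background limit, had 5.81, 5.55, 4.99 and 4.75 in Butyroside D arrays 1 to 4, against 5.54, 5.43, 5.01 and 4.99 in control arrays 1 to 4. For these 3, Butyroside D arrays 1 and 2 were above the other 6 arrays, and the same 2 arrays had the highest antigenomic background, so no order is read from them. Cox6a2, Cox7a1 and Cox8b are heart and skeletal muscle forms. Cox6a2 had 5.65, 6.02, 6.08 and 6.22 in Butyroside D arrays 1 to 4, against 5.86, 6.08, 5.49 and 5.66 in control arrays 1 to 4. Cox7a1 had 5.30, 5.39, 5.41 and 5.47 in Butyroside D arrays 1 to 4, against 5.69, 5.55, 5.40 and 5.31 in control arrays 1 to 4. Cox8b had 3.24, 3.13, 3.18 and 2.95 in Butyroside D arrays 1 to 4, against 3.07, 2.92, 3.10 and 3.12 in control arrays 1 to 4. Their arrays overlapped between groups. The 3 isoforms above the background limit differed by 0.22 ± 0.17 (Cox6a2), -0.10 ± 0.13 (Cox7a1) and 0.03 ± 0.24 (Cox8c).

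Complex V had the widest gap between the medians of the 2 Butyroside D pairs. Among its 15 genes for ubiquitous subunits, 14 had a positive group difference, with a median of 0.29. The median of these genes was, however, -0.13 in Butyroside D arrays 1 and 2 and 0.62 in arrays 3 and 4. By array the median of the 15 was -0.12, -0.12, 0.54 and 0.62 in Butyroside D arrays 1 to 4, against 0.09, 0.09, -0.09 and -0.10 in control arrays 1 to 4. The membrane part holds the c ring, the proton path and much of the outer stalk. Of its 9 member genes, 9 were positive in arrays 3 and 4 and 1, Atp5k, in arrays 1 and 2. The other 6 genes, for the catalytic head with its central shaft and the stalk cap, were split gene by gene in arrays 1 and 2.

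In the catalytic head, Atp5b, the beta subunit that holds the catalytic sites, had 15.03, 14.97, 15.37 and 15.29 in Butyroside D arrays 1 to 4, against 14.87, 14.89, 14.78 and 14.80 in control arrays 1 to 4. All Butyroside D arrays were above all controls, and the difference was 0.33 ± 0.13 (adjusted p = 0.241, limma). Its partner Atp5a1, the alpha subunit, was at -0.16 in arrays 1 and 2 and 0.31 in arrays 3 and 4 relative to the controls. The 3 parts of the central shaft differed from each other. Atp5d, the delta subunit, had 10.90, 10.95, 9.90 and 10.23 in Butyroside D arrays 1 to 4, against 9.83, 9.82, 9.44 and 9.34 in control arrays 1 to 4, the highest group difference of the members, 0.89 ± 0.25 (adjusted p = 0.129, limma). Atp5e, the epsilon subunit, had 8.35, 7.87, 7.80 and 7.69 in Butyroside D arrays 1 to 4, against 7.23, 7.56, 6.76 and 6.69 in control arrays 1 to 4, with a difference of 0.87 ± 0.22 (adjusted p = 0.11). For both genes all Butyroside D arrays were above all controls, and arrays 1 and 2 of the group were the highest of the 8. Atp5c1, the gamma subunit, had 13.09, 13.06, 13.81 and 13.70 in Butyroside D arrays 1 to 4, against 13.69, 13.68, 13.85 and 13.86 in control arrays 1 to 4. It was lower in Butyroside D arrays 1 and 2 than in any other array and level with the controls in arrays 3 and 4, for a difference of -0.35 ± 0.19 and a 95% interval of -0.78 to 0.07. The second transcript cluster with the symbol Atp5d, a noncoding one, was dim, with 4.52, 4.55, 4.27 and 4.68 in Butyroside D arrays 1 to 4, against 4.63, 4.44, 4.59 and 4.40 in control arrays 1 to 4. Its difference was -0.01 ± 0.13. Atp5o, the stalk cap that confers oligomycin sensitivity, was at -0.19 in Butyroside D arrays 1 and 2 and 0.81 in arrays 3 and 4.

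Atp5g1, Atp5g2 and Atp5g3 code for precursors of one and the same c subunit, and the Butyroside D arrays kept a like order in all 3. Atp5g1 had 8.70, 8.66, 9.33 and 9.51 in Butyroside D arrays 1 to 4, against 9.11, 8.93, 8.51 and 8.67 in control arrays 1 to 4. Atp5g2 had 13.74, 13.70, 14.47 and 14.41 in Butyroside D arrays 1 to 4, against 13.78, 13.69, 13.88 and 13.92 in control arrays 1 to 4, and Atp5g3 had 10.99, 10.93, 11.59 and 11.58 in Butyroside D arrays 1 to 4, against 11.45, 11.22, 10.79 and 10.76 in control arrays 1 to 4. In all 3, Butyroside D arrays 3 and 4 were the highest of the 8 arrays, and Butyroside D arrays 1 and 2 were within the control range. The control order was not shared, with arrays 1 and 2 above arrays 3 and 4 for Atp5g1 and Atp5g3 and below them for Atp5g2. The group differences were 0.25 ± 0.22, 0.26 ± 0.20 and 0.22 ± 0.22, with adjusted p of 0.509 to 0.625 (limma). The outer stalk genes Atp5f1, Atp5h and Atp5j, for subunits b, d and F6, were at 0.67, 0.84 and 0.95 in arrays 3 and 4 and at -0.15, -0.13 and -0.29 in arrays 1 and 2, relative to all controls. Atp5j2, which codes for subunit f, followed them with 0.81 and -0.23.

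The 2 subunits that help ATP synthases pair up in the cristae, e and g, had other orders. Atp5k, for subunit e, had 6.37, 6.32, 5.76 and 5.94 in Butyroside D arrays 1 to 4, against 5.57, 5.78, 5.34 and 5.41 in control arrays 1 to 4. Its arrays 1 and 2 of the Butyroside D group were clear of all others, and the difference was 0.57 ± 0.17 (adjusted p = 0.147, limma). These 2 arrays also had the highest antigenomic background, and the control signals of Atp5k, 5.34 to 5.78, were not far above the limit of 5.17. The part of background in the order and difference of Atp5k was not tested. Atp5l, for subunit g, had 8.01, 8.10, 8.77 and 8.74 in Butyroside D arrays 1 to 4, against 7.87, 7.67, 8.99 and 9.08 in control arrays 1 to 4. Control arrays 3 and 4 were the highest of the 8 and control arrays 1 and 2 the lowest. The controls split by 1.27 between their pairs, the widest control split of the members, and the group difference was 0.00 ± 0.34. Atp5s codes for factor B, a coupling factor outside the enzyme proper, and had 5.00, 5.27, 6.79 and 6.67 in Butyroside D arrays 1 to 4, against 6.51, 6.76, 6.69 and 6.37 in control arrays 1 to 4. Butyroside D arrays 1 and 2, close to background, were the lowest of the 8, and arrays 3 and 4 were near the top of the control range. The difference of -0.65 ± 0.38 was the lowest of the members. Atp5sl, a gene named for its likeness to Atp5s, is held by RefSeq under the symbol Dmac2. It was counted in complex V by its older symbol alone, and it differed by 0.01 ± 0.17.

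**Figure D3:**
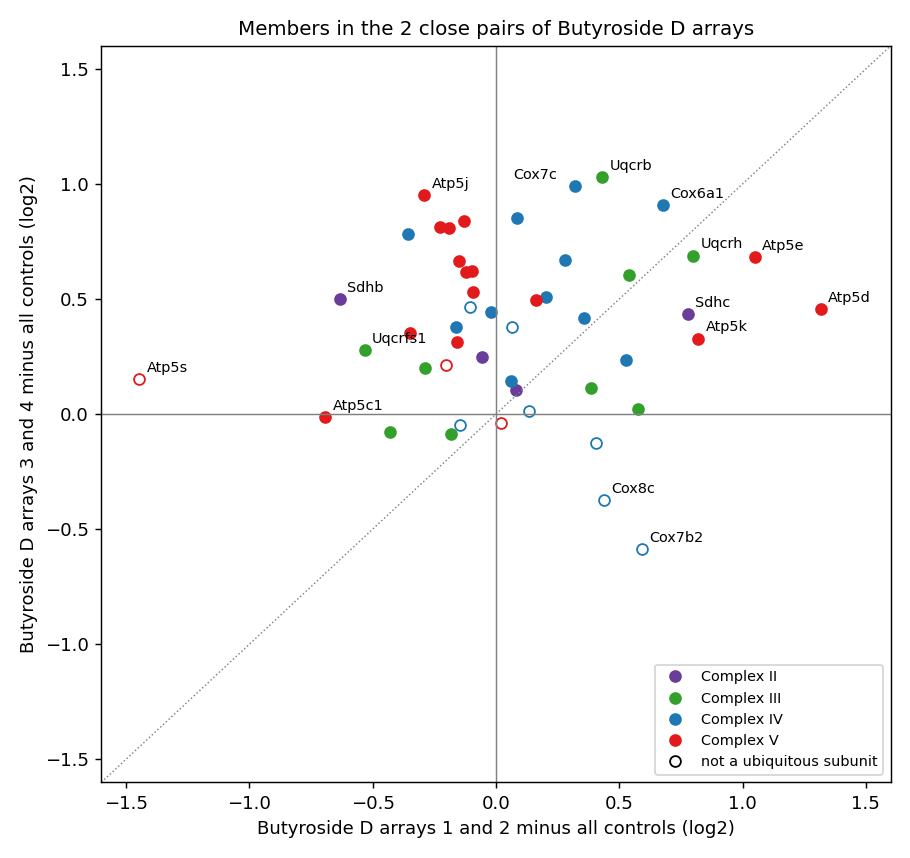
Each point is a member, placed by the mean of Butyroside D arrays 1 and 2 minus all controls (horizontal, log2) and that of arrays 3 and 4 (vertical, log2), with open points for members that are not ubiquitous subunits and a dotted line for equal values. Above 0 lie 41 of 49 members on the vertical axis and 25 of 49 on the horizontal one, and Atp5d, Atp5e, Atp5k, Sdhc and Uqcrh lie above 0 on both but are higher in arrays 1 and 2.

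A second source, the authors' deposited table, gives group averages and a fold change for a comparison headed as 2 µM of the compound against control. For all 49 members its control average was matched to within 0.01 by a Tukey biweight mean over the control arrays. Its Butyroside D average was matched in that way by the Butyroside D arrays for 0 of 49, with a median absolute difference of 0.31 (log2). For 25 of the 49 it lay outside the range of all 4 Butyroside D arrays by more than 0.01, as for Atp5l, at 9.72 in the authors' deposited table against a highest Butyroside D array of 8.77. The average may therefore stem from arrays other than these 4, and the calls below may concern other samples. Both sources share the control arrays. Of the 49 members, 6 in the authors' deposited table had an FDR under 0.05, all higher, beside 0.896% of all transcript clusters higher and 0.666% lower. The log2 fold change was positive for 40 of 49, with a median of 0.37, beside -0.03 over all transcript clusters in the authors' deposited table.

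The 6 were Uqcr10, 2.00-fold higher (FDR 0.0091), Cox4i1, 1.79-fold (FDR 0.015), Atp5h, 1.93-fold (FDR 0.0309), Cox7a2, 2.25-fold (FDR 0.0369), Cox6b1, 2.04-fold (FDR 0.043), and Atp5l, 2.48-fold (FDR 0.0468), all by the authors' deposited table. Over the 8 arrays these 6 differed by 0.57 ± 0.18, 0.36 ± 0.13, 0.35 ± 0.25, 0.21 ± 0.29, 0.47 ± 0.22 and 0.00 ± 0.34 (log2). For the 5 members with the highest differences in the arrays, the authors' deposited table has log2 fold changes of 0.29 for Atp5d, -0.03 for Atp5e, 0.50 for Cox6a1, 0.79 for Uqcrh and 0.90 for Uqcrb. Of the 4 complexes in the authors' deposited table, complex IV had the highest median, 0.44, and its 11 ubiquitous members were all positive with a median of 0.60 in the authors' deposited table. The medians of complexes II, III and V were 0.28, 0.15 and 0.41 in the authors' deposited table. Sdha was the lowest member, at -0.42 (FDR 0.357), in the authors' deposited table. Whether the 2 sources differ for any member was not tested.

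**Figure D4:**
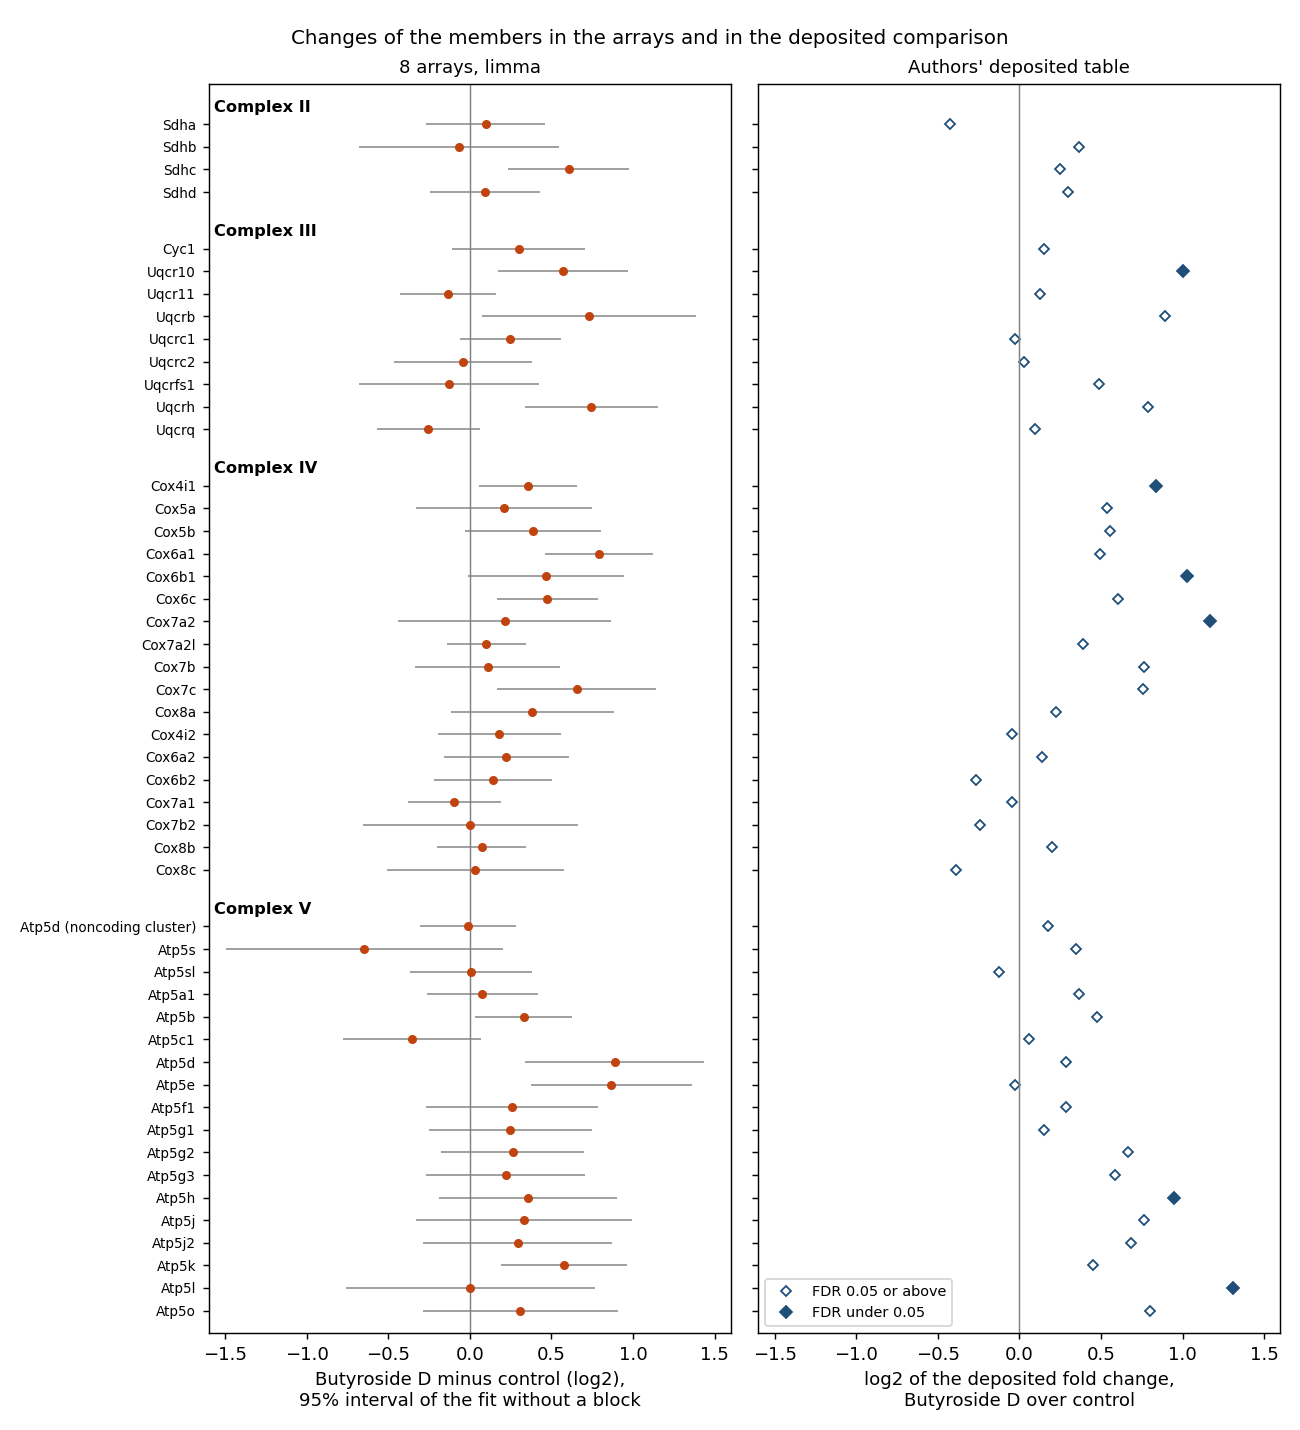
The left panel gives the log2 difference of Butyroside D minus control arrays with its 95% interval from limma without a block, and the right panel the log2 of the fold change in the authors' deposited table, filled where the FDR was under 0.05. Rows are members grouped by complex, and Atp5l stands at 0.00 on the left and 1.31 on the right while Atp5e stands at 0.87 on the left and -0.03 on the right.

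Other genes that build or feed these complexes were read from the same fit, and none passed the threshold. Among 4 assembly factors of complex II the median difference was 0.25, led by Sdhaf2, which helps attach the flavin, at 0.46 ± 0.20. Among 6 of complex III it was 0.33, with Uqcc1 at 0.36 ± 0.14 and Uqcc2 at 0.50 ± 0.22, both needed for cytochrome b. Of the 24 assembly genes fixed for complex IV, 21 were measured and had a median of 0.12. Pet100, a chaperone of complex IV assembly, had the highest value there, 0.83 ± 0.16 (adjusted p = 0.0712, limma). It had 1.04 in Butyroside D arrays 1 and 2, the arrays with the highest antigenomic background, and 0.62 in arrays 3 and 4. Its control signals, 5.32 to 5.41, were just above the background limit of 5.17, and the part of background in its difference was not tested. Coa3, which stabilises newly made COX1, was at 0.30 ± 0.12 but had a control mean below 5.17. For complex V, the median of 6 genes was 0.22. Atpaf1, a chaperone of the beta subunit, was lower, at -0.53 ± 0.16 (adjusted p = 0.145, limma). The symbol 2010107E04Rik, of a small subunit of the membrane part that is outside the member list, was at 0.47 ± 0.16. It had 0.30 in Butyroside D arrays 1 and 2 and 0.64 in arrays 3 and 4, relative to all controls. All 4 Butyroside D arrays were above all 4 control arrays for this gene. In the authors' deposited table, which may rest on other Butyroside D arrays, it was 2.18-fold higher (FDR 0.0229).

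Electron and substrate carriers had a median of 0.04 over 9 genes. Cycs, the cytochrome c that runs between complexes III and IV, was at 0.02 ± 0.28, with -0.54 in Butyroside D arrays 1 and 2 and 0.57 in arrays 3 and 4. The adenine nucleotide carrier Slc25a5 was at 0.38 ± 0.18, and the uncoupling protein Ucp2, with the smallest p of the list, was dim in both groups. Of the subunits coded in mitochondrial DNA, 2 had a transcript cluster of their own, named COX1 and COX2 in the file. They differed by -0.03 ± 0.11 and 0.01 ± 0.18, but with group means of 18.91 to 19.72 they lay near the top of the signal range. COX2 was at -0.25 in Butyroside D arrays 1 and 2 and 0.26 in arrays 3 and 4, relative to all controls. Its control arrays 1 and 2 were above control arrays 3 and 4 by 0.42. COX1 was at -0.07 and 0.00 in the same 2 Butyroside D pairs. Regulators of respiratory genes had a median of 0.04 over 11 genes. Relative to all controls, their median was -0.17 in Butyroside D arrays 1 and 2 and 0.14 in arrays 3 and 4. Arrays 3 and 4 of that group were above its arrays 1 and 2 for 8 of the 11 and below them for 3, Ppargc1a among these. Ppargc1a was at 0.13 ± 0.19, with 0.44 in Butyroside D arrays 1 and 2 and -0.18 in arrays 3 and 4, relative to all controls. In the authors' deposited table its log2 fold change was -0.68 (FDR 0.333). Nrf1, an activator of many respiratory genes, was at 0.12 ± 0.11, and Tfam, the packaging factor of mitochondrial DNA, at 0.24 ± 0.18. The smallest p values among the regulators were those of Pprc1, a relative of Ppargc1a, at -0.41 ± 0.28, and Tfam.

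Set beside the families most like them, the members did not stand alone in their split by pair. In Butyroside D arrays 3 and 4 the median difference from all controls was 0.42 for the 49 members, against 0.47 for 45 complex I transcript clusters, 0.25 for 75 of mitochondrial ribosomal proteins and 0.49 for 72 of cytosolic ribosomal proteins. In arrays 1 and 2 it was 0.02 for the members, against -0.03, 0.06 and -0.29 for the same 3 families. Butyroside D arrays 3 and 4 were above all controls for 57.1% of the members, against 82.2%, 49.3% and 70.8% of these families and 18.9% of all transcript clusters. Past the threshold, all higher, were 0 of 49 members, against 1 of 45, 0 of 75 and 1 of 72 in these families (limma), beside 0.0766% of all transcript clusters. Within the controls, arrays 1 and 2 were above arrays 3 and 4 by a median of 0.20 for the members and 0.46 for complex III, against 0.00, 0.04 and -0.05 for the other families. Whether the members differ from these families was not tested.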

How the data were processed

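The values used were deposited by the authors. The submitters' processing notes name RMA, Transcriptome Analysis Console and Affymetrix Expression Console, with no versions or order. The genome build is not given in the sources used here, and no coordinates are printed. The value table holds log2 signals per the labels and the values, 1 column per array. The authors' deposited table of the comparison holds log2 averages per group, a signed fold change (a score, with falls as negative numbers), a p-value and an FDR, per the file headers, with no test named.

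Of 28846 features, 6640 were control probe sets and 22206 were transcript clusters. Symbols are those of the deposited table. RefSeq's mouse gene table (GRCm38.p6) holds 45 of the 48 member symbols and 3 more as synonyms. Of the 49 members, 43 had a mean over the 8 arrays at or above 5.17, the highest median of 23 antigenomic background probe sets on any array, and 6 were below it and called dim. No filter was used in the main test.

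The two-sided test of Butyroside D minus control was limma's (version 3.58.1, under R 4.3.3, with lmFit, eBayes and no block), with Benjamini-Hochberg adjustment over all 22206 transcript clusters and a threshold of 0.05. The test was checked on simulated data. The number of arrays limits the precision. Alternatives were other scalings, leaving out dim transcript clusters, another variance model, blocks by replicate number or close pair, pair means, and leaving out each array. The members, lists, tests and the naming rule were chosen with earlier results of these data known. The rule named all of complex II, and in the other complexes the 4 smallest p values, the 2 lowest differences, tissue isoforms with their partners, the c subunit genes, and Cox4i1, Cox7a2 and Atp5l, which earlier work on these data had singled out. Values of further members are summarised. From the other lists it took up to 2 genes with the smallest p each, and Cycs, Ppargc1a, Nrf1 and the array values of Cyc1 and Cox7a2l were added outside the rule after their values were seen. Promoter motifs and sequences were not used here.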

Additional observations from a re-analysis of the deposited data

How the results depend on the processing

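No member passed the threshold in the limma fit to the arrays or under any of its 15 alternatives, where 4 to 13 members had an unadjusted p under 0.05. The smallest adjusted p of a member lay between 0.0564 and 0.19, except with the close pair as a random block or with means of close pairs, where it was 0.999. Over all transcript clusters the count of 26 (17 higher, 9 lower) became 48 (40 higher) with each array centred on its median, 55 (40 higher, 15 lower) without dim transcript clusters, and 0 with the close pair as a random block or pair means, with 890 and 571 at an unadjusted p under 0.05. Leaving out each array gave 0 to 5 (0 to 3 higher, 0 to 2 lower), with 3089 to 4401 at an unadjusted p under 0.05. It was 5 without Butyroside D replicate 4 and 0 without any other array. With the replicate number as a block (replicate block) limma called 0 transcript clusters, 0 higher and 0 lower, and 0 members, with 4320 and 12 at an unadjusted p under 0.05. The deviations of same-numbered arrays correlated at 0.0696 to 0.0839, so the numbers were not taken to pair the samples.

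Leaving out each array gave a median difference of 0.130 to 0.313 for all members, of 0.062 to 0.143 for complex II, of 0.164 to 0.317 for complex III, of 0.161 to 0.313 for complex IV and of 0.122 to 0.385 for complex V. The medians of Butyroside D arrays 3 and 4 stayed positive in every complex under each scaling, without dim members and without any 1 array. For complex II that median was 0.432 with arrays centred and 0.247 after quantile normalization. The median of complex IV was 0.383 for ubiquitous subunits alone and 0.443 in the authors' deposited table, where that of complex II was 0.275.

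Of the 34 named members, 15 changed sign under some alternative, and in no case was the main value past the threshold. Leaving out 1 array gave -0.256 to 0.150 for Sdhb, -0.011 to 0.175 for Sdhd, -0.004 to 0.485 for Cox7a2, -0.008 to 0.241 for Cox7b, -0.270 to 0.208 for Cox7b2, -0.145 to 0.209 for Cox8c and -0.241 to 0.228 for Atp5l. After quantile normalization Cox7b2 was at -0.002 and Atp5l at -0.021. In the authors' deposited table the sign was the opposite for Sdha (-0.422), Sdhb (0.367), Uqcr11 (0.124), Uqcrq (0.098), Cox4i2 (-0.043), Cox6b2 (-0.263), Cox7b2 (-0.239), Cox8c (-0.390), Atp5s (0.345), Atp5c1 (0.057) and Atp5e (-0.029). The cause of these differences was not tested. Signals below 5.17 limit what can be said of Uqcr11 and the dim isoforms.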
